A study of Mus musculus with 5 samples.

Results

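Transcripts of 7 inhibitory receptor genes were measured in single mouse T cells: Ctla4, Pdcd1 (PD-1), Tigit, Btla, Lag3, Havcr2 (TIM-3) and Entpd1 (CD39). They were taken by symbol from the 32285 genes of the deposited count matrices, and all 7 passed a minimum of 100 unique molecular identifiers (UMIs, one per captured RNA molecule) in the T cells. The study profiled CD4 T cells of OT-II mice, which carry a transgenic receptor for an ovalbumin (OVA) peptide on MHC class II. A naive OT-II mouse gave the spleen from which they were enriched by negative selection, and they were cultured overnight where apCAFs were added. The 5 groups, with 1 sample each, were OT-II cells alone, OT-II cells with sKPC apCAFs and DMSO, OT-II cells with sKPC apCAFs and OVA, OT-II cells with rKPC apCAFs and DMSO, and OT-II cells with rKPC apCAFs and OVA. The apCAFs are antigen-presenting cancer-associated fibroblasts, which were sorted from pancreatic tumors of mice, 1 source being the tumor clone sKPC and the other rKPC, so each tumor source rests on 1 clone.

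The barcodes of 1 deposited matrix, called G here, carried 3 library suffixes and those of the other, called H, carried 2, while the labels list 2 samples for G and 3 for H. Which suffix belongs to which sample could not be settled from these sources. The 5 libraries, Ga, Gb, Gc, Ha and Hb, were therefore kept apart as unassigned: their values and ranges are given, no groups of the study were compared, and no test across samples was run. Series of values below follow the order Ga, Gb, Gc, Ha and Hb.

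Inhibitory receptors lower the response of a T cell to antigen. CTLA-4 takes the ligands CD80 and CD86 away from the costimulatory receptor CD28, while PD-1, BTLA and TIGIT carry cytoplasmic tyrosine motifs through which inhibitory signals pass after they bind PD-L1 or PD-L2, HVEM and CD155, respectively. LAG-3 binds MHC class II, TIM-3 binds ligands that include galectin-9, and CD39 is an enzyme at the cell surface that breaks down extracellular ATP on the way to adenosine. Several of these receptors are made constitutively by regulatory T cells, whose lineage factor is Foxp3, and several are induced in conventional T cells after antigen receptor signalling, which also induces Irf4.

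The RefSeq start sites of 6 of the 7 genes were matched in the promoter table (GRCm38.p6). The 250 bases before the start are shown for 3 genes that were high together in Foxp3-positive barcodes, Ctla4, Pdcd1 and Tigit, and for Btla, which was not. Capitals mark matches to the NFAT core GGAAA, which reads TTTCC where it lies on the other strand, NFAT being a factor family activated by antigen receptor signalling. All are written 5′ to 3′ on the strand of the gene.
Ctla4: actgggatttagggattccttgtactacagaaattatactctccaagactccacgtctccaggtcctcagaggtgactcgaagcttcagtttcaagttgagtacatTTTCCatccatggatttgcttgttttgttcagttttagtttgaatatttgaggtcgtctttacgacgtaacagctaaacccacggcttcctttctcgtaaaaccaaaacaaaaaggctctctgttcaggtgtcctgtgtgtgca
Pdcd1: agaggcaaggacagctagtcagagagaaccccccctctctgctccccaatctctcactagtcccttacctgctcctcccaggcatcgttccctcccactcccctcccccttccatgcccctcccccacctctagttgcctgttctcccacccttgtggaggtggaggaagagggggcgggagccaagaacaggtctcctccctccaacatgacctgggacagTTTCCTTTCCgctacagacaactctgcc
Tigit: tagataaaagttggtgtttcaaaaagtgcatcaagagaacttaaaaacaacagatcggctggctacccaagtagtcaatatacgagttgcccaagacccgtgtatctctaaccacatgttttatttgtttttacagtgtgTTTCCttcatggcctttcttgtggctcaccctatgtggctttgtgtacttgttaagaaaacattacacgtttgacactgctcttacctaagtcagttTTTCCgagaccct
Btla: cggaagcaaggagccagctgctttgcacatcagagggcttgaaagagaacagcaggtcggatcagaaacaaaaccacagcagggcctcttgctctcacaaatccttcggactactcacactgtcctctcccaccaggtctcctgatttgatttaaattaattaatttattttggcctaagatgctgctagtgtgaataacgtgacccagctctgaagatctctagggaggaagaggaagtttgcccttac
The windows lie at chr1:60908775-60909024 on the plus strand for Ctla4, chr1:94052554-94052803 on the minus strand for Pdcd1, chr16:43664185-43664434 on the minus strand for Tigit and chr16:45224087-45224336 on the plus strand for Btla. The Ctla4 window lies within the longer gene model of GENCODE M21, which runs on the plus strand of chromosome 1 from 60887000 to 60915832. NFAT core letters occurred in the windows of Ctla4, Pdcd1 and Tigit and not in that of Btla. They were also absent from the windows of Havcr2 and of the first Entpd1 start site, both genes that were high in Foxp3-positive barcodes, and occurred 2 times at the second Entpd1 start site. Of all 32851 promoter windows of the same length, 55.6% held them. None of these 4 windows held the AP-1 letters TGANTCA (6.75% of all windows), the forkhead letters GTAAACA (3.17%) or TATAAA (12.4%), searched on both strands. A match is not a bound site, and an absent match says only that the letters are not in the window.

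The 5 libraries held 3549 to 7136 barcodes each, with median depths of 7658 to 8471 UMIs. Of 24890 barcodes with at least 500 UMIs and at most 10% mitochondrial UMIs, 22874 (91.9%) held a UMI of Cd3d, Cd3e or Cd3g and were taken as T cells. Pairs of libraries shared 2 to 14 barcode sequences. These T cells fell into 466 Foxp3-positive barcodes (2.04%), 2282 with Irf4 but no Foxp3 (9.98%), 4265 with Trdc but neither of those (18.6%), and 15861 others (69.3%), called the rest below. Irf4-positive barcodes were unequally spread: 1046, 37, 1134, 37 and 28 barcodes, or 19.98%, 1.20%, 17.7%, 0.881% and 0.711% of the T cells, so the values of this class in Gb, Ha and Hb rest on few cells. The names of the classes were checked against markers. Ikzf2, a factor common in regulatory T cells, was detected in 70.8% of Foxp3-positive barcodes against 10.7% of the rest, and Lrrc32, a surface carrier of TGF-beta on regulatory T cells, in 31.3% against 0.284%. Not all such markers were particular to this class. Ikzf2 was also in 49.0% of Trdc-positive barcodes, and Tnfrsf18 in 68.2% of Foxp3-positive and 51.6% of Irf4-positive ones. Il2ra was in 34.5% of Foxp3-positive but 66.9% of Irf4-positive barcodes. The other listed regulatory markers were most frequent in Foxp3-positive barcodes. Cd69, an early activation marker, was detected in 71.7% of Irf4-positive barcodes and in 11.1% of the rest. Its level ran from 62.8 to 746 CPM over the libraries in Irf4-positive barcodes and from 13.9 to 43.7 CPM in the rest. Il2ra ran from 3.12 to 794 CPM and from 4.40 to 26.4 CPM. The pooled shares of this class rest mostly on Ga and Gc, so they do not check its name in each library. A UMI of Trdc, the delta chain constant gene, did not by itself mark gamma-delta T cells: Trac, the alpha chain constant gene, was detected in 99.7% to 100% of the barcodes of each class. Cd4 was detected in 73.4% of Foxp3-positive, 42.9% of Irf4-positive, 44.7% of Trdc-positive and 73.0% of rest barcodes. In part of the cells the labelled CD4 identity was therefore not seen. The median depth was 9492.5, 10347, 9259 and 8020 UMIs in that order of classes. Irf4-positive and Trdc-positive barcodes thus had lower Cd4 shares than the rest although they were deeper, and the cause was not tested.

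Levels below are counts per 1000000 UMIs of all genes (CPM), summed over the barcodes of a class in a library. In Foxp3-positive barcodes, 5 of the 7 genes (Ctla4, Pdcd1, Tigit, Entpd1 and Havcr2) stood at least 2-fold above the rest in every library. This held for 2.70% of the 14758 genes with at least 100 UMIs, and 1.06% were that far below the rest, none of the 7 among them. The median gene of the 7 had a log2 ratio to the rest of 3.45, beside -0.01 over all 14758 genes. Foxp3-positive barcodes made up 2.04% of T cells and 2.75% of their UMIs, yet held 32.2% of all Tigit UMIs, 25.5% of Havcr2, 23.5% of Ctla4, 19.1% of Pdcd1 and 18.8% of Entpd1 UMIs. Lag3 (5.10%) and Btla (3.10%) were little concentrated there. After thinning each barcode to 2000 UMIs, 2 genes (Ctla4 and Tigit) kept the 2-fold difference in every library (background 2.0%), and Pdcd1 missed it in Gb alone, at 1.76 from 2 UMIs in a single draw. Thinned to 1000 UMIs, Ctla4 and Pdcd1 were counted (background 1.45%). Tigit was also at least 2-fold higher there in every library, from 5.05 in Gc to 45.5 in Gb, on 1 to 5 UMIs each. It was not counted because the minimum of 100 UMIs per gene applied to the thinned counts, and Tigit fell below it. At 4000 UMIs Ctla4, Pdcd1, Tigit and Entpd1 kept the 2-fold difference (background 2.6%). Both depths were added for this count after the data were seen. With barcodes left out that held at least 2 markers of B, erythroid, myeloid or fibroblast cells, Ctla4, Pdcd1 and Tigit kept it, on 168 Foxp3-positive barcodes (background 0.922%). All intervals below are exact 95% intervals that cover counting error only and treat UMIs as independent.

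**Figure D1:**
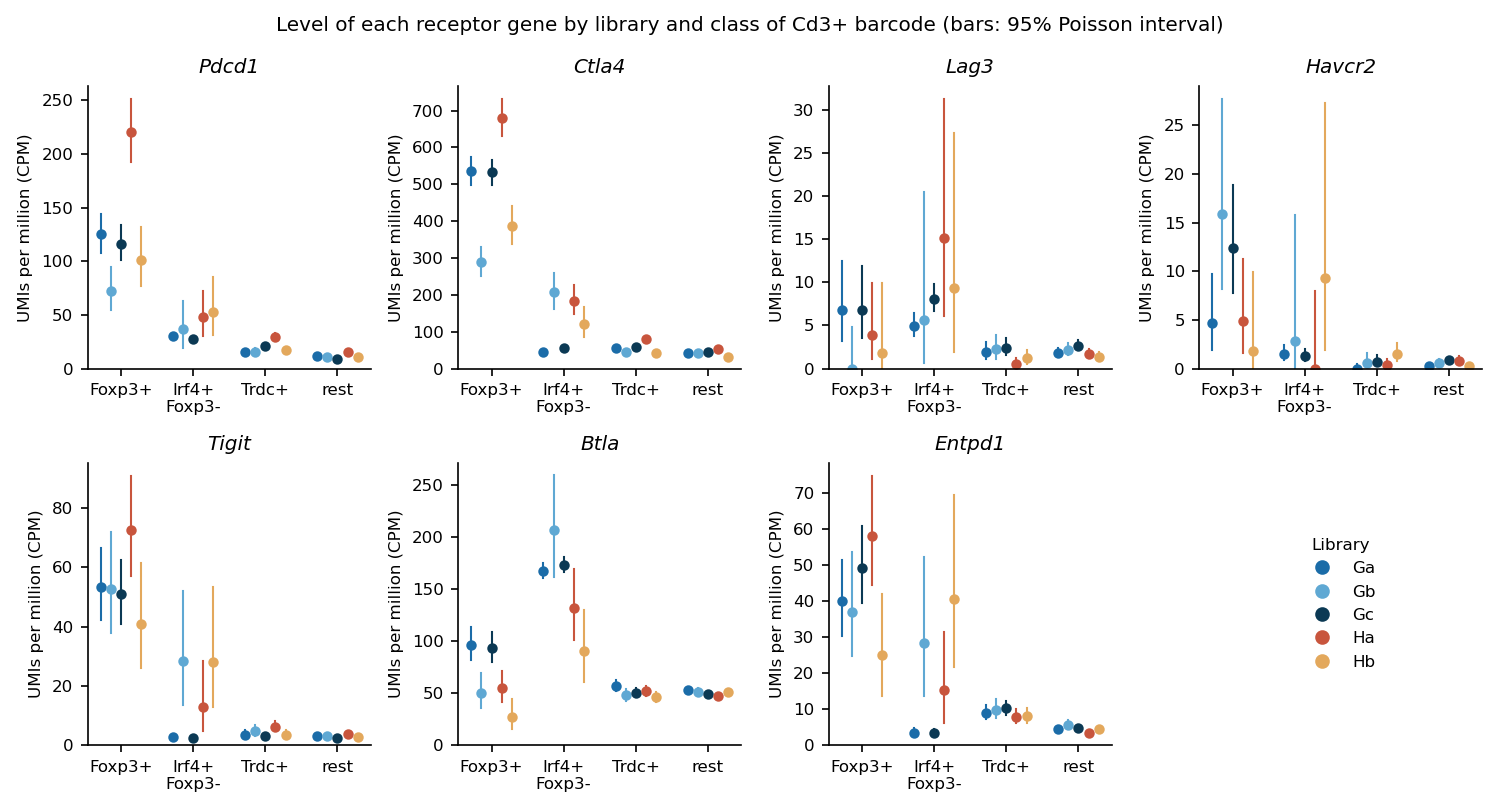
Level of each receptor gene in CPM (linear axes that start at 0) in the 4 classes of T-cell barcodes. Each point is 1 of the 5 libraries with its exact 95% counting interval. Ctla4, Pdcd1, Tigit and Entpd1 in Foxp3-positive barcodes lie above every value of the rest, while Btla lies highest in Irf4-positive barcodes.

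Ctla4 was at 535, 288, 532, 679 and 386 CPM in Foxp3-positive barcodes and at 41.0, 40.9, 43.6, 52.6 and 30.9 CPM in the rest. The ratios were 13.1 (11.9 to 14.3), 7.04 (6.03 to 8.19), 12.2, 12.9 and 12.5, so the ranges of the classes did not overlap, and Gb stood lowest. Ctla4 was detected in 51.7% to 76.6% of Foxp3-positive barcodes and in 8.76% to 13.9% of the rest. After each barcode was thinned to 2000 UMIs, these shares were 38.3% to 58.7% and 3.59% to 6.18%.

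Pdcd1 was at 125, 72.6, 116, 221 and 101 CPM in Foxp3-positive barcodes against 11.5, 10.7, 9.30, 15.7 and 10.3 CPM in the rest. The ratios ran from 6.78 (4.94 to 9.17) in Gb to 14 (11.9 to 16.5) in Ha, where the gene was highest in both classes. Its share of barcodes was 28.3% to 48.1% against 2.95% to 3.64%, or 3.85% to 26.1% against 1.22% to 1.83% after thinning. The lowest thinned share, 2 of 52 barcodes in Gb, came from 1 draw: the same library gave 11.5% against 0.803% of the rest at 1000 UMIs and 15 of 50 barcodes against 2.20% at 4000.

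Tigit, which competes with the activating receptor CD226 for CD155, had the steadiest levels of these genes over the libraries in Foxp3-positive barcodes, with 53.4, 52.8, 50.9, 72.6 and 40.9 CPM. The rest held 3.06, 3.17, 2.48, 3.63 and 2.69 CPM, and the ratios were 17.4, 16.6, 20.5, 19.99 and 15.2 (9.04 to 24.8 for the last, from 23 UMIs). The lowest of these ratios, in Hb, was thus still 15.2. Tigit was detected in 18.3% to 33.0% of Foxp3-positive barcodes, 6.02% to 14.1% after thinning, against 1.38% to 2.01% and at most 0.61% in the rest.

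Entpd1, whose product starts the conversion of ATP towards adenosine, was at 39.9, 37.0, 49.2, 58.1 and 24.9 CPM in Foxp3-positive barcodes and at 4.42, 5.67, 4.78, 3.32 and 4.32 CPM in the rest. Ratios were 9.02, 6.52, 10.3, 17.5 and 5.78 (3.05 to 10.1). Ha held both the highest Foxp3-positive and the lowest rest value. Entpd1 was detected in 15% to 27.7% of Foxp3-positive barcodes and 1.34% to 2.15% of the rest. After thinning to 2000 UMIs it was seen in 5.26% to 9.78% in 4 libraries and in 0 of 60 barcodes in Hb (exact 95% limit 5.96%), against 0.34% to 0.829% of the rest. B-cell markers summed to 287 to 422 CPM in Foxp3-positive barcodes against 141 to 198 CPM in the rest, and 35 Cd3-negative barcodes with B-cell markers held Entpd1 at 64.8 CPM. With barcodes left out that held at least 2 markers of other cells, the median log2 ratio of Entpd1 was 3.42, beside 3.17 with all barcodes, although it then missed 2-fold in at least 1 library. Nt5e (CD73), the enzyme that completes the step to adenosine, was also higher in Foxp3-positive barcodes, with ratios of 8.91, 4.86, 10.2, 7.02 and 4.98. The Entpd1 gene model overlaps another model on the same strand, so how reads were divided between them is uncertain.

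Havcr2 was scarce. Foxp3-positive barcodes held 7, 12, 22, 5 and 1 UMIs, or 4.73, 15.8, 12.4, 4.84 and 1.78 CPM, against 0.227, 0.520, 0.856, 0.820 and 0.244 CPM in the rest. The ratios of 20.9, 30.5, 14.5, 5.90 and 7.29 had wide intervals, the last from 0.158 to 60.1, since Hb had 1 UMI. Only 1.67% to 5.26% of Foxp3-positive barcodes held the transcript, and in Gb the 12 UMIs came from 2 barcodes. The summed level of 10 myeloid markers in this class was 159, 85.8, 490, 857 and 76.6 CPM against 131 to 191 CPM in the rest, and its part in the Havcr2 ratios was not tested.

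Lag3 and Btla did not share this pattern. Lag3 had 10, 0, 12, 4 and 1 UMIs in Foxp3-positive barcodes, and its ratio to the rest was above 1 beyond counting error only in Ga (3.80, 1.71 to 7.63) and Gc (2.55, 1.27 to 4.68). Btla was at 96.6, 50.2, 93.8, 55.2 and 26.7 CPM against 52.9, 51.5, 49.1, 47.1 and 50.9 CPM. The Btla ratios went in both directions, from 1.91 (1.62 to 2.24) in Gc and 1.83 (1.53 to 2.17) in Ga to 0.525 (0.293 to 0.869) in Hb.

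**Figure D2:**
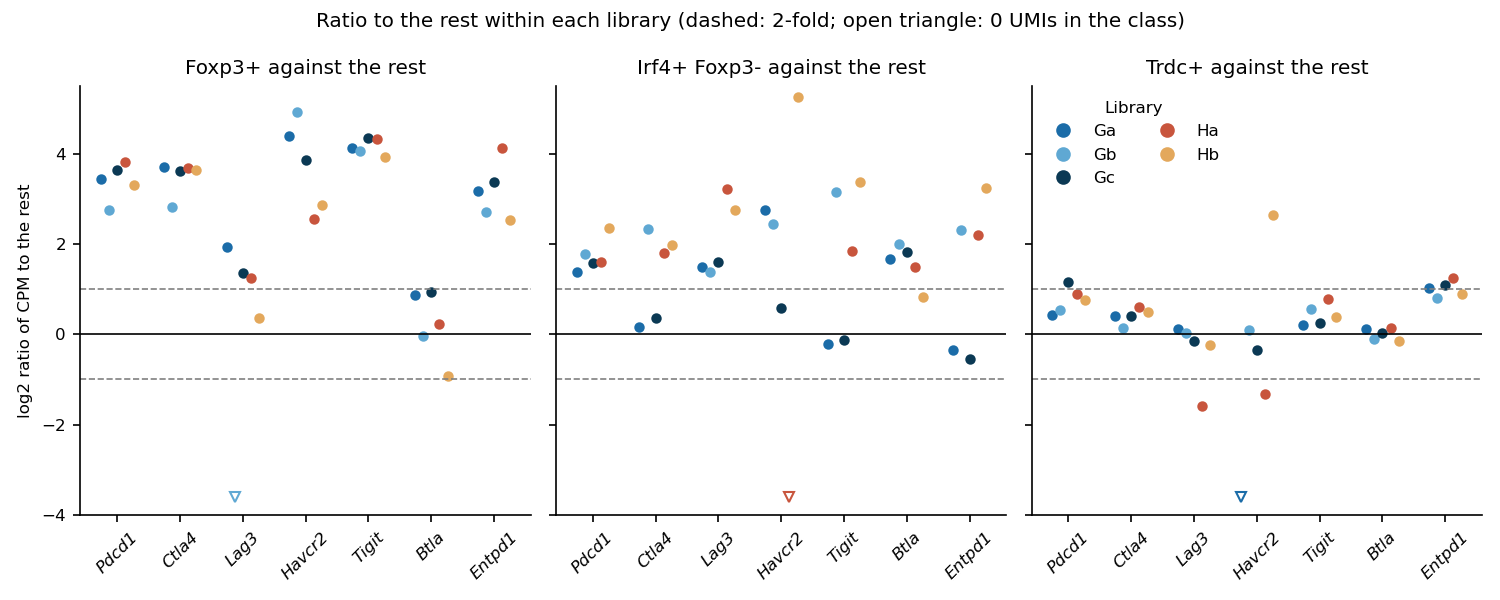
Log2 ratio of CPM in Foxp3-positive, Irf4-positive and Trdc-positive barcodes to the rest for the 7 genes. Each point is 1 library, dashed lines mark 2-fold up and down, and open triangles mark a class with 0 UMIs. In the Foxp3-positive panel, Ctla4, Pdcd1, Tigit and Entpd1 lie above the 2-fold line in every library, whereas Btla lies on both sides of 0.

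The levels also followed the number of Foxp3 UMIs, in a split of the class into barcodes with at least 2 Foxp3 UMIs (75, 24, 72, 56 and 27 barcodes) and those with 1 (52, 28, 61, 38 and 33). Ctla4 was at 722, 678, 729, 1014 and 658 CPM with at least 2 UMIs and at 187, 89.6, 183, 220 and 152 CPM with 1. Pdcd1 was at 165, 165, 131, 301 and 193 CPM against 50.2, 25.9, 90.7, 110 and 23.2 CPM. Tigit was at 75.9, 125, 76.1, 90.4 and 80.9 CPM against 11.6, 15.9, 6.26, 48.2 and 6.62 CPM. For these 3 genes the barcodes with more Foxp3 were higher in all 5 libraries, and those with a single Foxp3 UMI still lay above the rest in each. No interval is given for these comparisons, and the single-UMI Tigit values of Gc (61 barcodes) and Hb (33) rest on few Tigit UMIs. Median depth in Ga was 10873 UMIs with at least 2 Foxp3 UMIs and 9508.5 with 1, and its part in this split was not tested. Btla was higher with at least 2 Foxp3 UMIs in 4 libraries and lower in Hb (15.4 against 36.4 CPM).

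Within Foxp3-positive barcodes, a split by Irf4 was added after the data were seen, for Ga (25 Irf4-positive barcodes) and Gc (29). Pdcd1 was at 56.8 CPM in Irf4-positive against 151 CPM in Irf4-negative ones in Ga, and at 76.2 against 143 CPM in Gc. Btla went the other way, at 143 against 79.1 CPM in Ga and 127 against 72.7 CPM in Gc. Ctla4 was at 565 against 524 CPM in Ga and at 440 against 592 CPM in Gc, which gives no common direction.

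In Irf4-positive Foxp3-negative barcodes a different set stood out. Pdcd1 and Lag3, 2 of the 7 genes, were at least 2-fold above the rest in every library, against 0.705% of all genes tested, and Btla was so in 4 of 5. None of the 7 was that far below the rest, against 1.15% of all genes. The class held 32.8% of all Btla UMIs, 33.6% of Lag3 and 20.1% of Pdcd1 UMIs, beside 12.9% of the UMIs of all genes. It held 9.03% of Tigit and 8.64% of Entpd1 UMIs. Gb, Ha and Hb held few barcodes of this class, and the count was 0 (background 0.325%) with at least 2 UMIs of the class gene required, and 1 (Btla, background 0.590%) when Trdc-positive barcodes were set aside before the Irf4-positive ones.

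Btla was at 168, 207, 173, 132 and 90.4 CPM, with ratios to the rest of 3.17 (2.96 to 3.40), 4.01 (3.12 to 5.09), 3.53 (3.32 to 3.77), 2.81 (2.13 to 3.63) and 1.78 (1.19 to 2.57). Hb, with 29 UMIs in 28 barcodes, was the only library below 2-fold. The receptor was detected in 40.5% to 54.0% of Irf4-positive barcodes and 20.9% to 22.8% of the rest, and after thinning in 11.1% to 24.1% and 7.03% to 8.68%. BTLA is also made by B cells, and 35 Cd3-negative barcodes with at least 3 B-cell markers held Btla at 510 CPM. The summed level of 7 B-cell markers in Irf4-positive barcodes was 102, 142, 630, 2539 and 527 CPM against 141 to 198 CPM in the rest. With barcodes left out that held at least 2 markers of other cells, the median log2 ratio of Btla was 1.77, beside 1.66 with all barcodes.

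Pdcd1 was at 29.9, 36.8, 27.6, 47.7 and 53.0 CPM in Irf4-positive barcodes, with ratios of 2.61 (2.23 to 3.05), 3.43 (1.80 to 6.0), 2.97 (2.55 to 3.46), 3.03 (1.88 to 4.65) and 5.14 (2.95 to 8.40). These levels were below those of Foxp3-positive barcodes in every library. Lag3, which is known to be induced by T-cell activation, was at 4.98, 5.66, 8.09, 15.2 and 9.35 CPM, from 59, 2, 107, 7 and 3 UMIs. Its ratios were 2.81 (1.88 to 4.21) in Ga and 3.04 (2.28 to 4.08) in Gc. In Gb the Lag3 ratio of 2.59 rests on 2 UMIs and its interval ran from 0.304 to 9.96. In Ha, where Lag3 was highest, the summed level of 8 erythroid markers in this class was 22174 CPM against 648 CPM in the rest, and its part in that value was not tested.

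Ctla4, Tigit and Entpd1 in Irf4-positive barcodes divided the libraries by the size of the class. In Ga and Gc, the libraries with over 1000 such barcodes, Ctla4 was at 45.7 and 55.6 CPM, with ratios to the rest of 1.11 and 1.28. Gb, Ha and Hb had 207, 184 and 122 CPM and ratios of 5.05, 3.5 and 3.94. Tigit had ratios of 0.855 and 0.915 in Ga and Gc and of 8.92, 3.58 and 10.4 in the other 3, and Entpd1 of 0.783 and 0.680 against 4.99, 4.57 and 9.39. In these 3 libraries 25 of 37, 29 of 37 and 26 of 28 barcodes had a single Irf4 UMI. The summed level of 8 genes of the early antigen receptor response, without Irf4, was 2972 and 2810 CPM in this class in Ga and Gc and 461, 175 and 196 CPM in Gb, Ha and Hb, and its part in these ratios was not tested.

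The number of Irf4 UMIs was examined in Ga and Gc in Foxp3-negative barcodes with 0, 1, 2 to 3 and at least 4 UMIs. Btla was at 54.0, 73.3, 161 and 200 CPM over these bins in Ga and at 49.4, 93.1, 130 and 210 CPM in Gc, higher at each step in both. Pdcd1 was at 12.4, 13.9, 16.8 and 37.7 CPM in Ga and at 12, 17.1, 26.3 and 31.5 CPM in Gc, also higher at each step. Ctla4 had no such order, at 44.4, 80.1, 42.7 and 35.1 CPM and at 46.9, 64.5, 49.1 and 53.9 CPM. Tigit was lower in the top bin than in barcodes with no Irf4, at 2.32 against 3.18 CPM in Ga and 1.64 against 2.59 CPM in Gc, and so was Entpd1, at 2.44 against 5.56 and 1.76 against 6.05 CPM. Btla and Pdcd1 were thus highest, and Entpd1 below its level without Irf4, in the top bin of both libraries. Tigit had 31 UMIs in the whole Irf4-positive class of Ga and 30 in Gc. Its ratios to the rest there had intervals of 0.546 to 1.31 and 0.582 to 1.40, which hold 1. The top bin holds only part of these UMIs, so no direction is read from its Tigit values. Median depth over the bins was 8419, 8949, 9692 and 11563.5 UMIs in Ga and 8217.5, 8797, 9003.5 and 11243 in Gc, and its part was not tested.

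**Figure D3:**
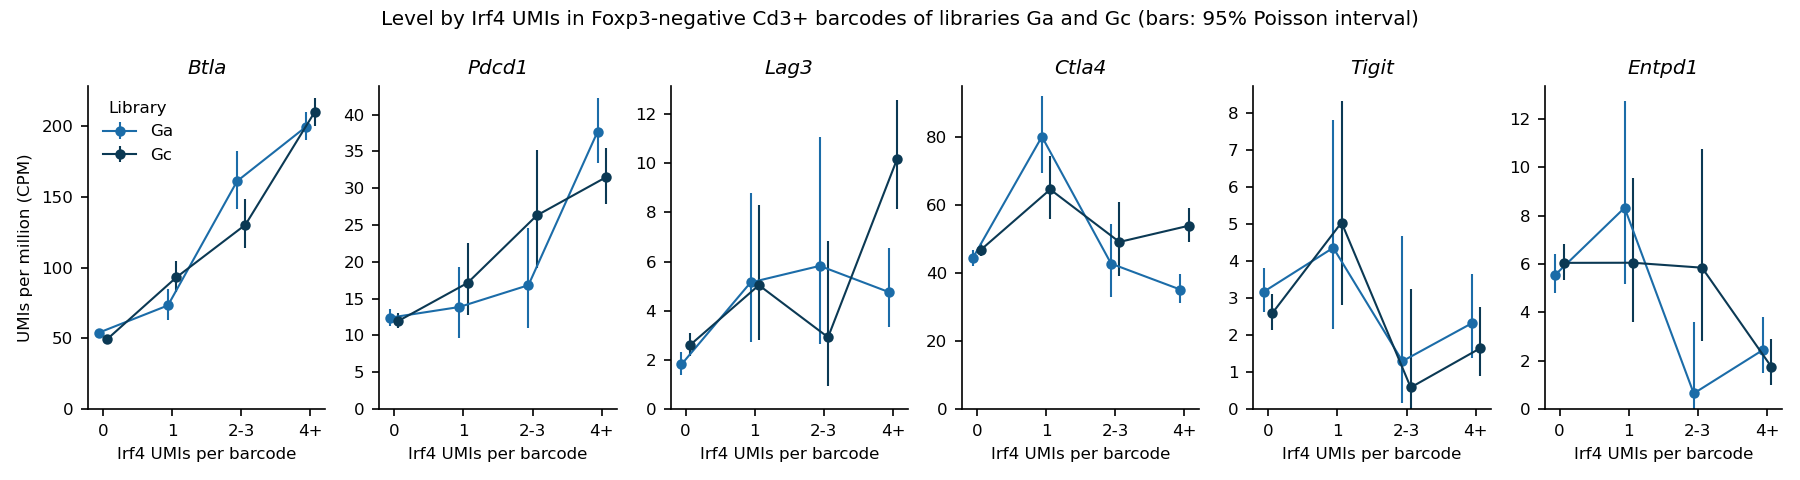
Level of 6 receptor genes (all but Havcr2) in CPM against the number of Irf4 UMIs per barcode (0, 1, 2 to 3, at least 4) in Foxp3-negative T cells of Ga and Gc, with exact 95% counting intervals. Btla runs from 54.0 to 200 CPM in Ga and from 49.4 to 210 CPM in Gc, and Pdcd1 from 12.4 to 37.7 and from 12 to 31.5 CPM.

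In Trdc-positive barcodes none of the 7 genes was at least 2-fold above the rest in every library, against 1.79% of all genes, and none was that far below it, against 0.163%. Entpd1 came nearest, at 8.97, 9.84, 10.1, 7.84 and 8.0 CPM and ratios of 2.03, 1.74, 2.12, 2.36 and 1.85, each above 1 beyond counting error. Pdcd1 had ratios of 1.34, 1.46, 2.22, 1.86 and 1.69, also above 1 beyond counting error in all 5 libraries, and Ctla4 of 1.33, 1.11, 1.32, 1.53 and 1.41, in 4. Btla stayed within 0.906 and 1.10 of the rest, with every interval holding 1. The remaining genes left the rest beyond counting error in 1 library each. Tigit was higher in Ha (1.71, 1.21 to 2.40) and Havcr2 in Hb (6.26, 2.22 to 20.1, from 13 UMIs). Myeloid markers summed to 569 CPM in Trdc-positive barcodes of Hb against 131 CPM in its rest, and their part in the Havcr2 ratio was not tested. Lag3 was lower in Ha (0.332, 0.103 to 0.838, from 5 UMIs). A split added after the data were seen divided the class by coreceptor. In Trdc-positive barcodes with a Cd4 but no Cd8 UMI, Ctla4 was at 80.8, 61.4, 95, 97.9 and 70.4 CPM, beside 39.4, 31.3, 30.7, 62.2 and 22.4 CPM in those with neither coreceptor. Entpd1 was at 15.5, 14.3, 14, 14.4 and 14.6 CPM against 5.54, 6.13, 4.98, 2.12 and 2.65 CPM. Both genes were thus higher on the Cd4 side of the class in every library.

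Levels in the rest were also compared between libraries. The highest library exceeded the lowest by 1.12-fold for Btla, 1.46-fold for Tigit, 1.69-fold for Pdcd1, 1.70-fold for Ctla4, 1.71-fold for Entpd1 and 1.92-fold for Lag3. Havcr2 passed 2-fold, at 3.78-fold from 29 UMIs in Gc and 6 in Ga, and 14.1% of all genes did so, a share near that of 1 in 7. On the log2 scale the median span of all tested genes was 0.32, and 6 of the 7 receptor genes lay above it, from 0.55 for Tigit to 1.83 for Havcr2, with Btla below it at 0.17. The highest library was Ha for Ctla4, Pdcd1 and Tigit, and the lowest was Gc for Pdcd1 and Tigit and Hb for Ctla4.

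The variation within the rest was larger. Barcodes of the rest with a UMI of Maf, a transcription factor of follicular helper and other effector T cells, or of Tshz2 numbered 293, 198, 329, 231 and 218. Pdcd1 was at 66.7, 60.4, 63.3, 125 and 82.2 CPM in them and at 4.75, 4.18, 3.34, 4.48 and 2.88 CPM in the others, a ratio of 14, 14.5, 18.9, 28.0 and 28.6. Ctla4 was at 186, 204, 178, 254 and 168 CPM against 23.4, 19.4, 28.7, 31.9 and 16.7 CPM. Lag3 was at 11.9, 13, 16.9, 14.2 and 10.4 CPM against 0.551, 0.765, 1.08, 0.344 and 0.449 CPM. So these barcodes, in which no UMI of Foxp3 or Irf4 was seen, carried Pdcd1, Ctla4 and Lag3 at many times the level of their neighbours in every library. Tigit was at 17.1 to 23.1 CPM against 0.852 to 1.64 CPM, and Entpd1 at 23.0 to 36.5 against 0.990 to 2.38 CPM. Btla differed least, with ratios of 1.74, 1.43, 1.66, 1.66 and 2.22. Median depth was 8900 to 9445 UMIs in the Maf- or Tshz2-positive barcodes and 7608 to 8125 in the others. Maf was also detected in 44.0% of Foxp3-positive barcodes, against 6.70% of the rest, and part of the Foxp3-positive barcodes held a single Foxp3 UMI. A regulatory T cell without a captured Foxp3 UMI falls in the rest, and the part of such cells in this split was not tested.

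**Figure D4:**
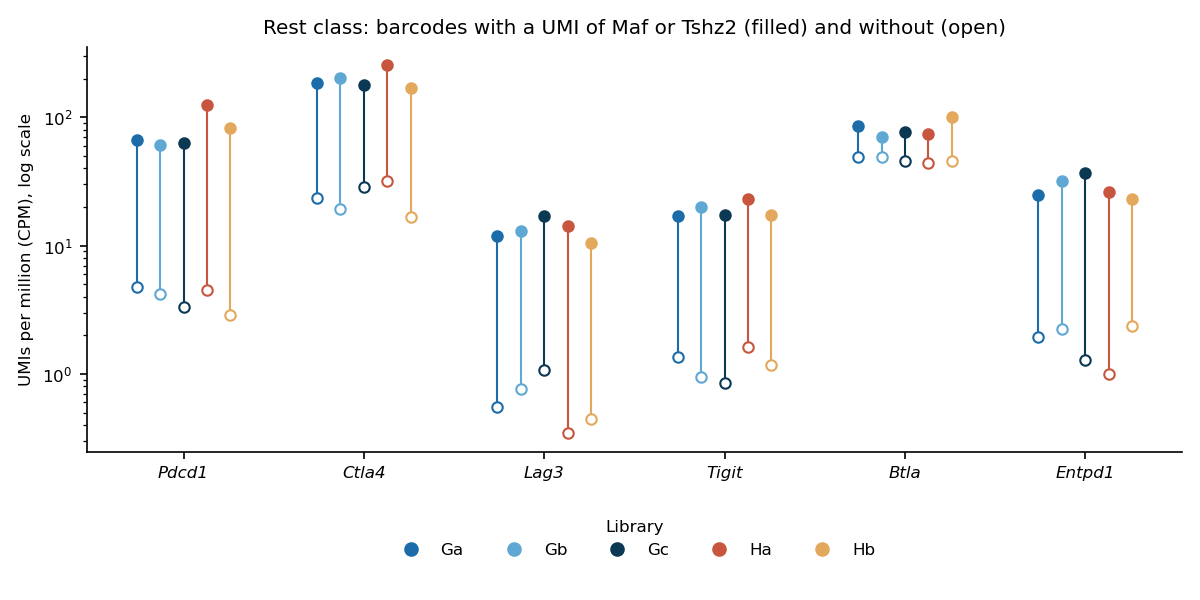
Level of 6 receptor genes (all but Havcr2) in CPM (log axis) in barcodes of the rest with (filled) and without (open) a UMI of Maf or Tshz2, 1 line per library. Pdcd1 lies at 60.4 to 125 CPM with and at 2.88 to 4.75 CPM without, whereas Btla lies at 70.2 to 101 against 44.3 to 49.0 CPM.

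The same split applied to Irf4-positive barcodes, added after the data were seen, gave Ctla4 at 117, 363, 133, 498 and 331 CPM in those with Maf or Tshz2 (89, 15, 120, 9 and 7 barcodes) and at 37.6, 92.9, 44.1, 73.2 and 50.1 CPM without. Such barcodes made up 15 of 37, 9 of 37 and 7 of 28 in Gb, Ha and Hb, and 89 of 1046 and 120 of 1134 in Ga and Gc. Without them, Tigit was at 1.79, 4.89, 1.65, 2.93 and 8.36 CPM. Btla without them was at 162 CPM in Ga and 168 CPM in Gc, close to the value of the whole class.

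Free RNA sets a floor under shares of barcodes with a UMI, and it was read from 192 Cd3-negative barcodes with at least 3 erythroid markers (median 8255 UMIs). Pdcd1 and Tigit were seen in none of them, which allows a share of up to 1.56% by 3 counts of 192 (exact 95% limit 1.90%). Ctla4 and Lag3 were each seen in 0.521%, Btla and Havcr2 in 1.04% and Entpd1 in 1.56%. In the rest, Havcr2 was seen in 0.095% to 0.37%, which is not above this level, itself from 2 barcodes (0.126% to 3.71%). The shares of Lag3 (0.797% to 1.58%), Tigit (1.38% to 2.01%) and Entpd1 (1.34% to 2.15%) in the rest also lay within or near the intervals of these 192 barcodes. By this comparison alone they are not told from background. For Entpd1 the comparison rests on 11 UMIs in 3 of the 192 barcodes, as many as 9 of them in a single barcode. Whether that barcode held free RNA alone was not tested, so the Entpd1 floor is uncertain. After thinning, Entpd1 was seen in 0 of 157 such barcodes (exact 95% limit 2.32%) and in at most 0.829% of the rest. Within the rest, Havcr2 met Entpd1 in 12 barcodes against 0.643 expected, above the expected number in all 5 libraries. In 81 Cd3-negative barcodes with myeloid markers (median 21930 UMIs), Entpd1 was detected in 27.2% and Havcr2 in 16.05%.

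**Figure D5:**
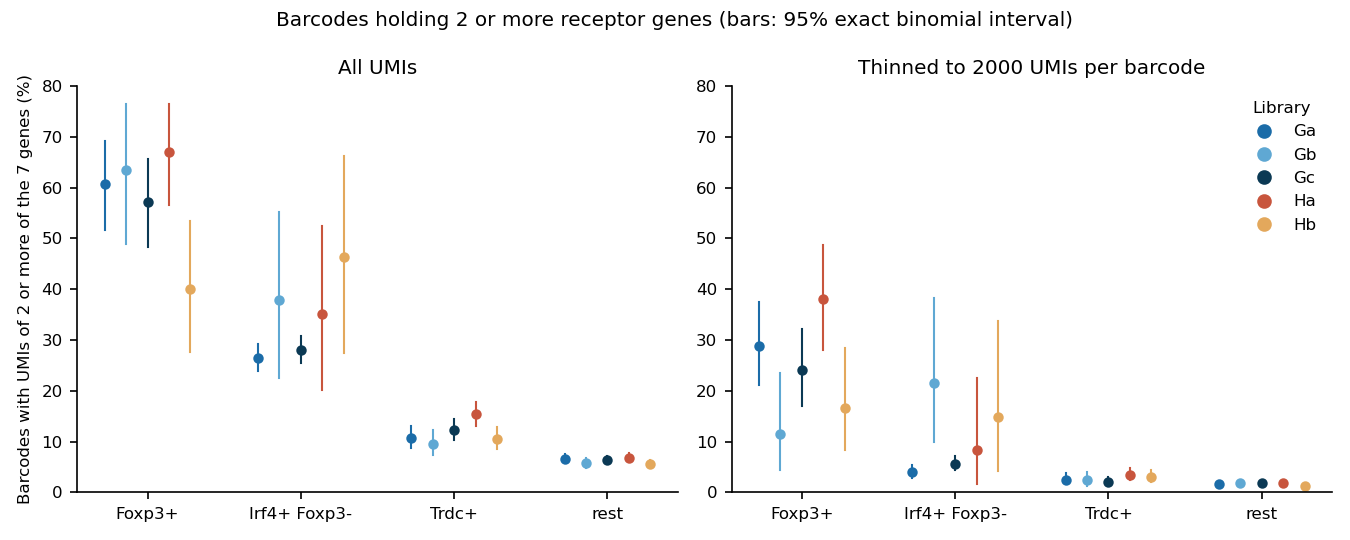
Share of barcodes with UMIs of at least 2 of the 7 genes, in percent, by class, for all UMIs (left) and after thinning to 2000 UMIs per barcode (right). Each point is 1 library with its exact 95% binomial interval. Foxp3-positive barcodes lie at 40.0% to 67.0% on the left and the rest at 5.51% to 6.83%.

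The receptors were often held by the same barcodes. In Foxp3-positive barcodes 60.6%, 63.5%, 57.1%, 67.0% and 40.0% held at least 2 of the 7, against 5.51% to 6.83% of the rest. After thinning to 2000 UMIs the shares were 28.8%, 11.5%, 24.1%, 38.0% and 16.7% against 1.22% to 1.94%. In the rest, Pdcd1 and Ctla4 occurred together in 302 barcodes where 61.0 were expected from their separate shares in each library. Pdcd1 and Tigit did so in 111 against 8.47 expected, Pdcd1 and Lag3 in 73 against 6.20, and Tigit and Entpd1 in 47 against 4.14. Each of these pairs exceeded its expected number in all 5 libraries, and after thinning Pdcd1 and Ctla4 still met in 80 barcodes against 10.9 expected. In a barcode of the rest with Pdcd1, Ctla4 was found in 64 of 128 cases in Gc, the lowest share, and in 71 of 114 in Ha, the highest, and in one without Pdcd1 in 7.17% to 12.05%. Btla followed the others weakly: with Ctla4 it met in 561 barcodes against 396 expected and with Pdcd1 in 201 against 114. Depth varies within a class, which by itself puts pairs above their expected number.

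Within Foxp3-positive barcodes the excess was smaller, with 160 barcodes holding Pdcd1 and Ctla4 against 121 expected and 83 holding Pdcd1 and Tigit against 48.3. In Irf4-positive barcodes Pdcd1 and Ctla4 met in 76 against 84.2 expected, above the expected number in 3 libraries, and after thinning in 14 against 9.49, above it in 4, so the direction turned with depth. Pdcd1 and Btla met there in 292 against 211, above the expected number in all 5 libraries, and after thinning in 32 against 25 expected, above it in 2. All 7 transcripts were found together in 3 barcodes of all T cells.

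Of the 13 other inhibitory receptors listed, 12 had at least 100 UMIs. In Foxp3-positive barcodes of every library, 3 of these 12 were at least 2-fold above the rest, beside 2.70% of all genes tested. These were Klrg1, an inhibitory lectin of effector cells (8 to 41 UMIs in the class, ratios of 40.9, 16.9, 85.1, 102 and 98.4), Cd200r1 (6.54, 3.74, 5.65, 6.54 and 2.20), and Cd5, a brake on antigen receptor signalling (2.13, 2.0, 3.23, 2.22 and 3.22, so Gb lay just at the threshold). In Irf4-positive barcodes Cd5 (4.34, 3.06, 4.74, 2.31 and 2.95) and Cd200, the ligand of Cd200r1 (9.12, 15.5, 11.8, 3.51 and 6.04), were higher in every library. Over all genes tested, 0.705% were at least 2-fold higher there in every library. Klrg1, with 2 UMIs in this class, was at least 2-fold lower in every library, as were 1.15% of all genes tested. The list of ligands, 9 of them tested, also holds Cd200r1 as the partner of Cd200. Besides Cd200r1, 2 of the list were higher in Foxp3-positive barcodes, the CTLA-4 ligands Cd80 (11.2, 3.97, 25, 11.9 and 15.5) and Cd86 (16.6, 6.92, 22.6, 8.68 and 10.5). B cells and myeloid cells also make both. B-cell markers summed to 399, 366, 287, 358 and 422 CPM in this class against 141 to 198 CPM in the rest, myeloid markers reached 490 CPM in Gc and 857 CPM in Ha, and their part was not tested. In Irf4-positive barcodes Pdcd1lg2 (PD-L2) had ratios of 22.7, 18.1, 19.5, 2.58 and 1.82, with Hb under 2-fold. The gene of this list that passed there was H2-Ab1 (1 of 9), an MHC class II chain and so part of the ligand of LAG-3, at 11.7, 2.83, 26.0, 444 and 402 CPM against 0.529, 0.832, 1.27, 6.48 and 2.77 CPM in the rest, the value of Gb from 1 UMI. B cells and myeloid cells also make H2-Ab1. B-cell markers summed to 2539 CPM in Ha and myeloid markers to 1459 CPM in Hb in this class, and their part was not tested.

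Of 5 activating partners, Icos was higher in Foxp3-positive barcodes (6.71, 3.55, 5.85, 6.26 and 4.42), while Cd28, which shares its ligands with CTLA-4, was at 0.830, 0.595, 0.771, 0.904 and 0.908 of the rest. Of 11 phosphatases, adaptors and enzymes, Nt5e alone passed. Of 8 transcription factors tied to exhaustion, 2 passed, Tox (2.50, 2.05, 2.20, 4.11 and 2.44) and Tox2 (3.21, 8.14, 8.31, 4.09 and 6.73). Over all genes tested, 2.70% passed in Foxp3-positive barcodes. Tcf7, a factor of naive and memory T cells, was at 0.421, 0.375, 0.451, 0.427 and 0.564. In Trdc-positive barcodes Cd160, another HVEM receptor (3.14, 2.90, 2.57, 4.52 and 2.89), and Cd226, the activating counterpart of TIGIT (2.62, 2.37, 2.97, 2.32 and 2.51), were higher in every library, as were Nt5e (2.84, 3.08, 3.63, 2.85 and 3.32) and Eomes, a factor of memory and innate-like T cells (11.9, 6.39, 7.18, 9.44 and 7.03). Over all genes tested, 1.79% were at least 2-fold higher in Trdc-positive barcodes of every library. None of the activating partners, enzymes or transcription factors listed passed in Irf4-positive barcodes, against 0.705% of all genes tested.

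Across the 20 sums of 5 libraries by 4 classes, the genes whose log2(CPM + 1) was most like that of a member were Ttn, F730043M19Rik and Ttc39c for Ctla4 (Pearson's r of 0.968, 0.962 and 0.957) and Lrrc32, H2afz and Lclat1 for Pdcd1 (0.945, 0.940 and 0.932). For Tigit they were Ttn, Maf and Rora (0.972, 0.961 and 0.958), and for Entpd1 Sh3bgrl, Rora and Ces2c (0.967, 0.960 and 0.949). For Btla they were Plk3, Rbm19 and Luc7l2 (0.921, 0.919 and 0.913), for Lag3 Slamf7, Ciita and Jak2 (0.894, 0.863 and 0.845) and for Havcr2 Hsd17b7, Nsd2 and Wdr83 (0.889, 0.871 and 0.869). Among the 7 genes, Ctla4 with Pdcd1, Ctla4 with Tigit and Tigit with Entpd1 each had r of 0.96, Lag3 with Btla 0.74, and Btla with Tigit 0.08. The sums share libraries and class rules, so these values describe the 20 sums.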

How the data were processed

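Single-cell RNA of mouse samples was read with the 10x Genomics 5′ chemistry. The authors deposited unnormalized UMI counts, with genes as rows and barcodes as columns, in 2 matrices that each aggregate several libraries. Alignment and counting used Cell Ranger 6.0.0 with the mm10 genome, per the submitters' processing notes. Per the file headers, the matrices were written by cellranger 7.1.0. Not given in the sources used here are an equalisation of depth in aggregation and the counting of introns. Barcodes were classed by at least 1 UMI, in the order Foxp3, Irf4, Trdc, rest. No doublet caller was run, and alternatives left out deep barcodes or those with markers of other cells. Counts were summed per library and class, with exact Poisson intervals for levels, exact Clopper-Pearson intervals for shares and exact conditional binomial intervals for ratios, at 95%. These intervals cover counting error only, and UMIs of 1 barcode are not independent. With 1 sample per group there was no replicate check. A gene was counted as higher where its CPM ratio to the rest was at least 2-fold in every library. Spans used 0.5 UMIs added. Thinning drew 2000 UMIs per barcode once without replacement (seed 7), leaving out shallower barcodes. The 7 genes and the gene lists were chosen with earlier results of these data known. The text names all 7 genes, listed pathway genes, and for each of the 7 the 3 genes of highest correlation. The call was tested on counts simulated with counting noise only, with changes larger than 2-fold put into genes of at least 1000 UMIs. Lag3, Havcr2 and Tigit, with 529, 184 and 952 UMIs in the T cells, lay below that minimum, so this test does not cover them. Python 3.11.15, numpy 2.4.6, scipy 1.17.1, pandas 2.3.3 and matplotlib 3.10.9 were used.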

Additional observations from a re-analysis of the deposited data

How the results depend on the processing

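No paired analysis was possible because each group has 1 sample and the labels give no replicate numbers. Of the 7 genes, the number at least 2-fold above the rest in every library of Foxp3-positive barcodes was 5. It was 2 with barcodes thinned to 2000 UMIs, 2 (not the same pair) to 1000 and 4 to 4000. At 1000 UMIs Tigit was also 2-fold higher in every library, but fell below the minimum of 100 UMIs per gene. The number was 3 with barcodes holding at least 2 markers of other cells left out. It was also 3 with at least 1000 UMIs per gene required, where fewer genes are tested. The number in Irf4-positive barcodes was 2. It was 1 with Trdc-positive barcodes taken before Irf4-positive ones, 0 with at least 2 UMIs of the class gene, 1 after thinning to 2000 or 4000 UMIs, 0 at 1000, and 1 with at least 1000 UMIs per gene. The number of genes spanning 2-fold over libraries within the rest was 1. It was 2 after thinning to 2000 or 4000 UMIs, 1 at 1000, 3 with a mean over barcodes in place of sums, 3 without the top 6% of UMIs, 3 without barcodes with markers of other cells, and 0 with at least 1000 UMIs per gene. The causes were not tested where not named. Leaving out 1 library at a time gave 5 to 5 for Foxp3-positive, 2 to 3 for Irf4-positive (3 without Hb, where Btla was added), 0 to 0 for Trdc-positive barcodes and 1 to 1 for the span. Trdc-positive barcodes gave 0 under every alternative tried. Of 434 values of single genes under alternatives, 360 stayed within a set range and 74 moved beyond it. The range was that over libraries for class ratios, a fixed limit for spans and the counting interval for ratios of thinned shares. A reversal of direction was looked for only in class ratios that were 2-fold in every library, and 0 of them reversed. Depth limits Havcr2 and Lag3 most, with 184 and 529 UMIs in all T cells.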
